A study of Mus musculus with 2 samples.

Results

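The 10 genes described here encode the Polycomb repressive complex 2 (PRC2) and the enzymes that undo its mark. They are the core subunits Ezh1, Ezh2, Eed and Suz12, the accessory subunits Jarid2, Mtf2, Phf1 and Phf19, and the H3K27 demethylases Kdm6a and Kdm6b. They were chosen by gene symbol, and all 10 were measured, by 14 of the 44397 array features; the table held 22485 named genes. Mouse embryonic stem (ES) cells of a Utx knockout line (UtxKO) and of the wild-type line V6.5 were compared, each after 48 h of 100 nM retinoic acid (RA) without leukaemia inhibitory factor (LIF) and untreated on gelatin with LIF. Utx is the protein of Kdm6a, and the labels also give V6.5 for the knockout line. The sources used here do not say how many knockout clones there were. Each line had 1 dual-colour Agilent array that held RA-treated RNA in Cy5 and untreated RNA in Cy3, so the 2 arrays give each gene 1 log2 ratio (RA-treated over untreated) per line. RA and LIF withdrawal came together in both lines and cannot be told apart, and "after RA" stands for both below.

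PRC2 methylates histone H3 at the lysine named K27, and the fully methylated form, H3K27me3, marks silenced developmental genes. Ezh1 and Ezh2 are alternative catalytic subunits, while Eed binds the mark and Suz12 is the scaffold. Accessory subunits help bring the complex to chromatin: Mtf2, Phf1 and Phf19 are the Polycomb-like proteins, and Jarid2 belongs to another form of the complex. Kdm6a and Kdm6b are JmjC-domain enzymes that remove the mark. In ES cells PRC2 covers the promoters of many differentiation genes that lose the mark when the cells differentiate.

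Ratios above 0 are taken to mean more RNA after RA. The dye labels make this direction likely, and 4 of 4 measured RA targets (Cyp26a1, Rarb, Stra8 and Hoxb1) had ratios between 2.40 and 4.91 in UtxKO and between 2.38 and 4.37 in V6.5. With 1 array per line there are no replicates, so neither the ratio of a line nor the difference between lines has a replicate check. As a guide to the error on an array, genes with 2 to 9 features had a median SD between their features of 0.14 in UtxKO and 0.14 in V6.5. For the UtxKO minus V6.5 difference the same SD had a median of 0.11 and a 95th percentile of 0.37. Ratios carry no level, so neither the loss of Utx nor the identity of the cells can be checked from these values. The RNA is of whole cultures, in which fewer cells of a type and less RNA per cell cannot be told apart. Markers of cell types moved as well, by the limma test given below, in which 8.93% of all genes rose and 7.93% fell. Of 9 fibroblast markers 7 fell, with ratios from -2.63 to 0.25 in UtxKO and from -1.95 to 0.02 in V6.5. Of 9 pluripotency markers 2 fell, Pou5f1 and Klf4, with ratios from -2.44 to -0.16 in UtxKO and from -1.65 to 0.29 in V6.5. Ratios were below 0 on both arrays for 7 of these 9. At an unadjusted p under 0.05 in limma 7 were lower and 0 higher, beside 17.9% and 16.8% of all genes. Of 5 markers each, 2 rose for trophoblast, 2 fell for primitive endoderm and 2 rose for neural cells. The part of these in the values below was not tested.

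Except for Phf19, the genes of the H3K27 methylation machinery changed by less than 1.5-fold in either line. Of all genes, 12.3% changed by 1.5-fold or more in UtxKO and 12% in V6.5. No ratio of the 10 genes reached 2-fold on either array, against 4.57% of all genes in UtxKO and 4.11% in V6.5. The median ratio of the 10 was -0.12 in UtxKO and -0.19 in V6.5, against -0.02 for all genes on each array. Ratios were below 0 on both arrays for 5 genes (Eed, Phf1, Ezh1, Kdm6a and Suz12), as for 41.2% of all genes, and above 0 on both for 0 genes, as for 34.3%. The other 5 genes had ratios of opposite sign in the lines, as did 24.4% of all genes, and among them the gap passed 2-fold for Phf19 alone. Arrays centred on their medians gave the same 5 genes of opposite sign. Scaling the arrays to the same spread cannot change a sign, so it is no check of this.

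**Figure D1:**
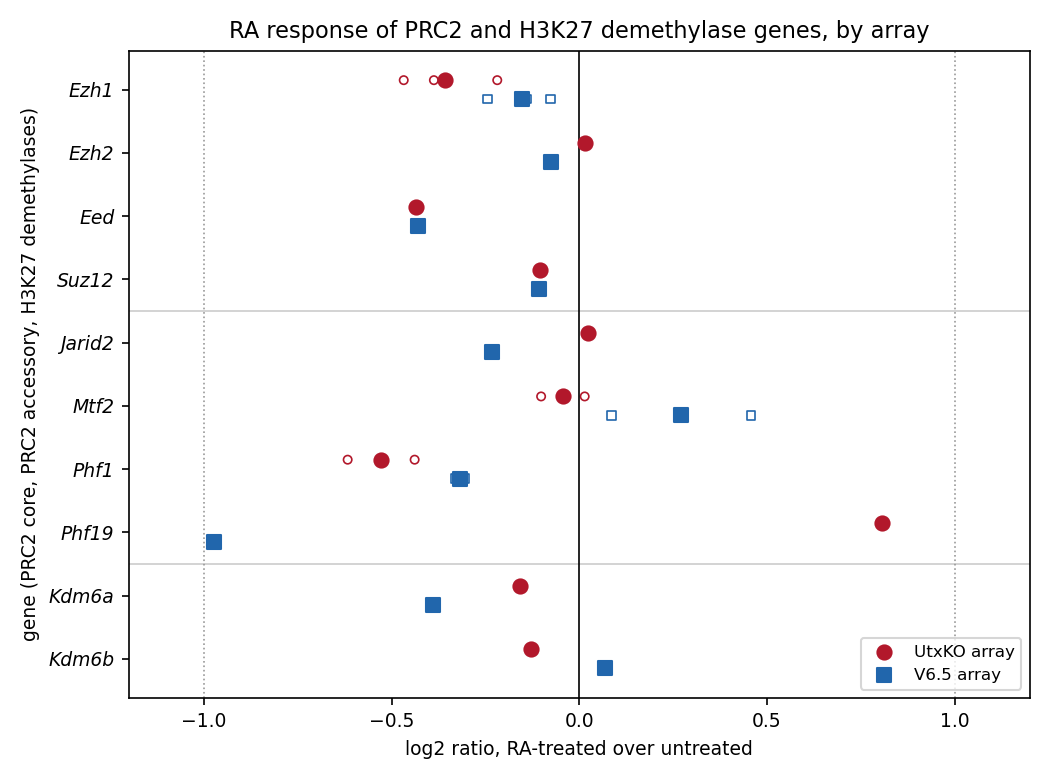
RA response of the 10 genes. The x axis is the log2 ratio (RA-treated over untreated), filled circles are the UtxKO array and filled squares the V6.5 array (mean of the features of a gene), small open symbols are single features where a gene has several, and dotted lines mark 2-fold. Phf19 lies at 0.81 in UtxKO and -0.97 in V6.5, while the other 9 genes lie between -0.53 and 0.27.

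The 2 arrays were taken by limma as samples of 1 response across all 22485 genes. It tested whether the mean ratio of a gene differed from 0, and not whether the lines were alike. In this test 1 of the 10 genes fell, Eed, and 0 rose, at a Benjamini-Hochberg adjusted p under 0.05. Of all genes 7.93% fell and 8.93% rose by the same rule, so the count lay near the background. At an unadjusted p under 0.05, 4 genes were lower (Eed, Phf1, Kdm6a and Ezh1) and 0 higher, beside 17.9% and 16.8% of all genes. Values after ± are moderated SEs of limma over 2 arrays, which draw on the spread of all genes. They do not describe replicate cultures, and a dye bias of a gene is part of its mean.

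Promoters are shown for the 4 genes with an unadjusted p under 0.05 and for Phf19, the gene that differed most between the lines. The letters are the 250 bases before the start of each gene, 5′ to 3′ on the strand of the gene, from RefSeq on GRCm38.p6, and capitals mark the half-site of the retinoic acid receptor.
Eed, chr7:89980977-89981226, minus strand: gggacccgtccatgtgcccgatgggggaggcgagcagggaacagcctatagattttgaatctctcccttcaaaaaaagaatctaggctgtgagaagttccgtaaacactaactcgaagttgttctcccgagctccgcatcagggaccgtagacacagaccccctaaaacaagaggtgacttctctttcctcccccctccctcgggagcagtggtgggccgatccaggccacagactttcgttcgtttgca
Phf1, chr17:26932877-26933126, plus strand: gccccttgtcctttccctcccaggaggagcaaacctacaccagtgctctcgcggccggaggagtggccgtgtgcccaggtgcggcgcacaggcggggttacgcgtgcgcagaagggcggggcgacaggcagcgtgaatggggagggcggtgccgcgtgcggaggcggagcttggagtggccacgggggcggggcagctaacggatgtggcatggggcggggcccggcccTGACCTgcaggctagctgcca
Ezh1, chr11:101226464-101226713, minus strand: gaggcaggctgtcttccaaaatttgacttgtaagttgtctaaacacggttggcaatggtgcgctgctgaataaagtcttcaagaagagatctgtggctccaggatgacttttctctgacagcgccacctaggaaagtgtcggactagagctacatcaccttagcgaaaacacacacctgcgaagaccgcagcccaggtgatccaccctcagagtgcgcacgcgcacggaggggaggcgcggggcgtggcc
Kdm6a, chrX:18162325-18162574, plus strand: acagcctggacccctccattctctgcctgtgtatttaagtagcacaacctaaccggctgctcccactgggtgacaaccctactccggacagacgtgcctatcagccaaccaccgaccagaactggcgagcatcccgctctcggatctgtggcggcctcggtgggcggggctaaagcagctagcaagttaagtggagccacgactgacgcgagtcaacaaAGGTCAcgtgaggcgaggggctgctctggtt
Phf19, chr2:34913977-34914226, minus strand: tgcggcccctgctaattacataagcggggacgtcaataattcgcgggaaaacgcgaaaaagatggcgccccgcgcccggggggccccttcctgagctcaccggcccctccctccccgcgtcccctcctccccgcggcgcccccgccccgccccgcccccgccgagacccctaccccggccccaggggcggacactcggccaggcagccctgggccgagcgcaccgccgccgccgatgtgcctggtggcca

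Motifs were searched on both strands of these 250 bases in 9 of the 10 genes. Kdm6b was not among the windows used. The receptor half-site AGGTCA, shown in capitals, was found in Phf1, starting 21 bases before the gene start, and in Kdm6a, starting 31 bases before it. It is written as TGACCT in Phf1, where it lies on the other strand. This half-site occurred in 14.0% of the 32851 windows of the same length. The STAT motif TTCNNNGAA, bound by the factor that LIF activates, was found in 0 of the 9 genes and in 7.02% of all windows. The E2F motifs TTTCGCGC and TTTGGCGC, of the cell cycle factors known to bind PRC2 genes, were found in 0 of the 9 and in 0.654% of all windows. No other spelling of the E2F site was searched, so this count does not mean that E2F sites are absent. Base composition varied: the Phf19 window held 31 CpG and 75.2% G and C, and the Eed window 12 CpG and 54.4%, against medians of 6 CpG and 52.4% in all windows. These matches describe letters and not binding.

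Among the core subunits, Eed alone was called in the shared fit, in which 7.93% of all genes fell. Ezh1 was lower at an unadjusted p under 0.05 in limma but was not called. Eed, which binds H3K27me3 and stimulates the enzyme, had ratios of -0.44 in UtxKO and -0.43 in V6.5, a mean of -0.43 ± 0.07 and an adjusted p of 0.0346 in limma. This is a 1.35-fold fall from 1 feature, and the lines differed by -0.0059. Against a bound of 1.5-fold, tested with limma's treat, 0 of the 10 genes passed, as against 0.872% of all genes higher and 0.431% lower. Suz12, the scaffold, was as alike in the lines at a smaller size, with -0.10 in UtxKO and -0.11 in V6.5 (adjusted p of 0.381 in limma).

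The alternative catalytic subunits had different values. Ezh1, the form that prevails in non-dividing cells, had a mean ratio of -0.36 in UtxKO and -0.15 in V6.5 over 3 features. The features stood at -0.47, -0.39 and -0.22 in UtxKO and, in the same order, at -0.08, -0.24 and -0.14 in V6.5. All 3 were below 0 on both arrays, and all 3 were lower in UtxKO, by 0.08 to 0.39, with an SD of 0.17 between them. The shared mean was -0.26 ± 0.09, with an adjusted p of 0.135 in limma. Ezh2, the form of dividing cells, had 0.01 in UtxKO and -0.08 in V6.5 from 1 feature, both within the usual spread of features around 0 (adjusted p of 0.816 in limma). Ezh1 thus stood 0.37 below Ezh2 in UtxKO and 0.08 below it in V6.5, a gap with no replicate check.

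The Polycomb-like subunits, which bind CpG-rich DNA and methylated H3K36, gave the lowest and the highest ratio of the 10 genes on each array. Phf1 had features at -0.62 and -0.44 in UtxKO and at -0.31 and -0.33 in V6.5, so both features were below 0 on both arrays. Its mean ratio was -0.53 in UtxKO and -0.32 in V6.5, and the shared mean of -0.42 ± 0.09 missed the threshold with an adjusted p of 0.0524 in limma. It passed with arrays scaled to the same spread (adjusted p of 0.0480 in limma). Mtf2, the form that is prominent in ES cells, had features at 0.01 and -0.10 in UtxKO and at 0.46 and 0.09 in V6.5. Both features were lower in UtxKO than in V6.5, by 0.44 and 0.19, and the means were -0.04 in UtxKO and 0.27 in V6.5 (adjusted p of 0.515 in limma). Of the 10 genes only Mtf2 had a mean over both arrays above 0 with the values as deposited.

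Phf19 was the exception among the 10. Its feature had a ratio of 0.81 in UtxKO, 1.75-fold higher after RA, and of -0.97 in V6.5, 1.96-fold lower after RA. In UtxKO 95.6% of all genes had a lower ratio than Phf19, and in V6.5 1.72% had. The UtxKO minus V6.5 difference was 1.78, or 3.43-fold, and 1.05% of all genes differed by 2-fold or more in either direction. Only 20 of the 22485 genes, Phf19 included, differed by as much in either direction, and 12 of them were higher in UtxKO. A ratio past 1.5-fold up in UtxKO and past 1.5-fold down in V6.5 was found in 4 genes, 0.0178% of all. Past 1.5-fold in either direction, Phf19 was the single member on each array, beside 12.3% of all genes in UtxKO and 12% in V6.5. So 1 of 10 lay near the background. By direction, 7.28% of all genes were higher in UtxKO and 5.36% lower in V6.5. In the shared fit its mean was -0.08 ± 0.45, with an adjusted p of 0.919 in limma, since a difference between the lines goes into the residual of that fit.

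The value of Phf19 rests on 1 feature on each array. How far features of a gene lie apart can be described from genes with several. Among 12678 features of genes with 2 to 9 features, 68 (0.536%) had a difference between the lines that lay 1 or more from the mean of the other features of the gene, and 6 (0.0473%) lay as far off as the size of the Phf19 difference. In a gene with 2 features both lie equally far apart and both are counted. The counts thus describe disagreement between features and not how many went astray. Differences of 2-fold or more were found in 1.17% of genes with 1 feature and in 0.733% of those with several. Of the 20 genes with a difference as large as that of Phf19, 18 rested on 1 feature, as did 16347 of all 22485 genes. Whether Phf19 differed before RA, after RA or at both times cannot be told from ratios.

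**Figure D2:**
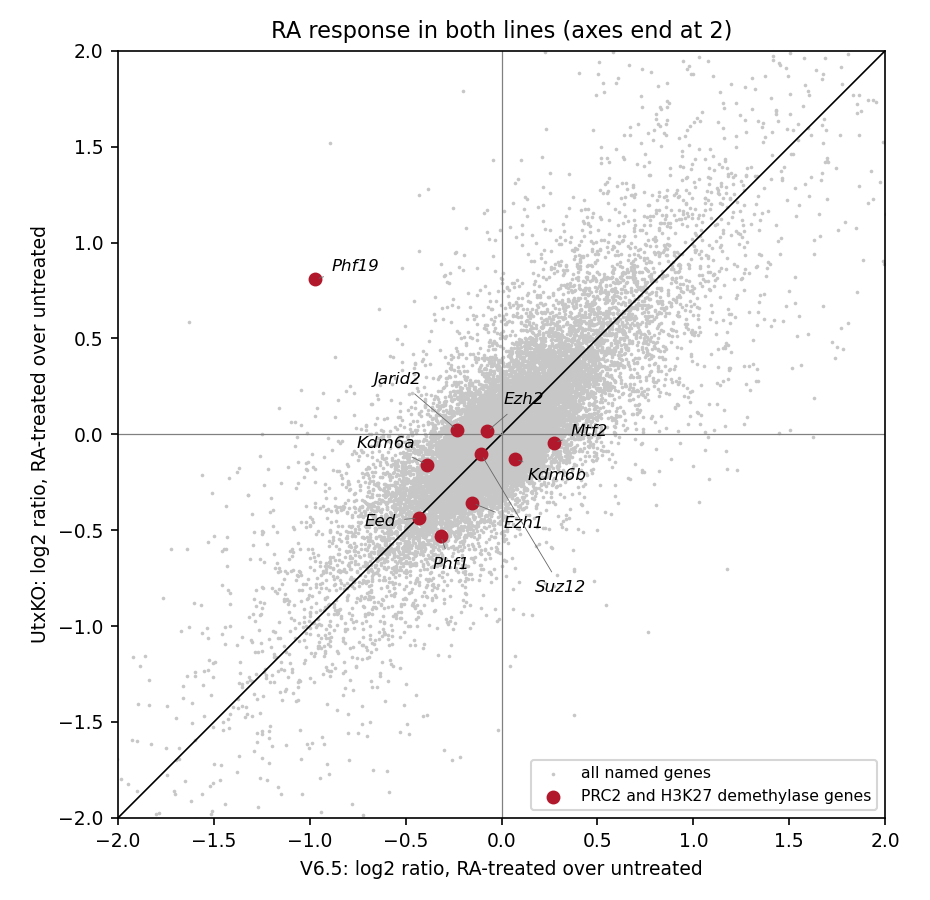
RA response in UtxKO (y axis) against V6.5 (x axis), each as the log2 ratio (RA-treated over untreated). Grey points are all named genes within the axes, red points the 10 genes, and the diagonal marks equal ratios. Phf19, at 0.81 in UtxKO and -0.97 in V6.5, lies far above the diagonal, and Eed lies on it.

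The gene next to Phf19 also differed between the lines. In the RefSeq order of measured protein-coding genes, Traf1, an adaptor of tumour necrosis factor receptors, follows Phf19. Its ratio was 1.33 in UtxKO and 0.08 in V6.5, a difference of 1.25, also from 1 feature on each array. A difference of 2-fold or more, higher in UtxKO, was found in 0.583% of all genes. On the other side, Cutal had 0.15 in UtxKO and -0.04 in V6.5, and Psmd5, an assembly chaperone of the proteasome, had 0.23 in UtxKO and 0.01 in V6.5. Beyond Traf1, Hc, which encodes complement component C5, had -0.01 in UtxKO and -0.03 in V6.5. Of 8 neighbours examined, Traf1 was the only gene with a difference past 1.5-fold. These neighbours were looked up after the value of Phf19 was seen.

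**Figure D3:**
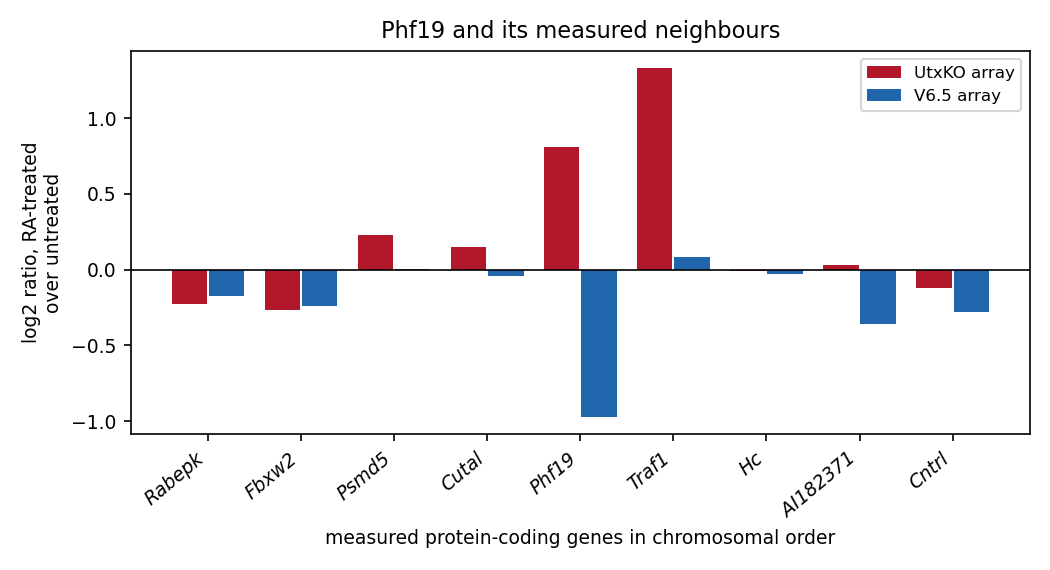
Log2 ratio, RA-treated over untreated, (y axis) for Phf19 and 4 measured protein-coding genes on either side, in chromosomal order (x axis, not to scale). Bars are single arrays, UtxKO left of V6.5. Phf19 and Traf1 are the genes with a gap past 2-fold between the lines.

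Jarid2, which belongs to the other form of the complex and carries a JmjC domain without demethylase activity, had a ratio of 0.02 in UtxKO and -0.23 in V6.5. Its feature gave a difference of 0.25, and 22.5% of all genes differed by as much in either direction. The shared mean was -0.10 ± 0.10 (adjusted p of 0.508 in limma).

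Both demethylase genes changed by less than 1.5-fold in either line. Kdm6a, the gene targeted in the knockout, had -0.16 in UtxKO and -0.39 in V6.5, with a shared mean of -0.27 ± 0.09 and an adjusted p of 0.129 in limma. The UtxKO value compares 2 conditions of cells that carry the knockout allele. The position of its probe relative to the deleted part is not known here. Kdm6b, the related enzyme encoded on an autosome, had -0.13 in UtxKO and 0.07 in V6.5 (adjusted p of 0.849 in limma). Uty, the Y-linked relative of Kdm6a, had -0.15 in UtxKO and 0.03 in V6.5 over 2 features. Neither Kdm6b nor Uty reached 1.5-fold in either line, and the difference of Kdm6b between the lines, -0.20, was matched in size by 32.6% of all genes.

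More genes had ratios close to those of Kdm6a than close to those of Phf19. By distance between the pairs of ratios, over 2 arrays, the genes nearest to Kdm6a were Dyrk3, Rnf4 and Ubl5, at distances between 0.0033 and 0.0065, and 333 of the 19395 genes searched lay within 0.1. For Phf19, 0 genes lay within 0.1, which restates the ratios that set it apart above. The nearest was Gsg1, at a distance of 0.37, with 0.65 in UtxKO and -0.64 in V6.5. Adgrg1 followed at 0.42, with ratios of 0.40 in UtxKO and -0.87 in V6.5. Gja1, a gap junction protein, had 0.87 in UtxKO and -0.52 in V6.5 as means over 10 features, at a distance of 0.46.

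Of the other partners of PRC2, its inhibitor rose. The list of 9 measured genes held Uty, the relative of Kdm6a, besides partners of PRC2. Of these 9 genes 1 rose and 0 fell, beside 8.93% and 7.93% of all genes. At an unadjusted p under 0.05 in limma 2 were higher and 0 lower, beside 16.8% and 17.9% of all genes. The list median was 0.06 in UtxKO and 0.03 in V6.5, the latter being the value of Uty. The gene that rose was Ezhip, whose protein binds PRC2 and inhibits its catalytic activity. Ezhip had ratios of 1.94 in UtxKO and 1.45 in V6.5, which is 3.83-fold higher after RA in UtxKO and 2.72-fold in V6.5, with a mean of 1.69 ± 0.14 and an adjusted p of 0.0123 in limma. It rests on 1 feature. Rbbp7, a histone-binding subunit, had 0.13 in UtxKO and -0.23 in V6.5, and Epop, a subunit prominent in ES cells, had 0.06 in UtxKO and 0.30 in V6.5. Lcor, whose locus also encodes a PRC2 partner and which was the second gene with an unadjusted p under 0.05, had 0.31 in UtxKO and 0.17 in V6.5 (adjusted p of 0.126 in limma). None of these 3 passed.

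Subunits of canonical PRC1, the complex that binds H3K27me3 through its Cbx proteins, moved both ways. Of 11 measured genes 3 rose and 2 fell, beside 8.93% and 7.93% of all genes. Cbx2, a chromodomain protein that binds the mark and the only 1 of 4 measured Cbx genes that passed, had 0.78 in UtxKO and 0.56 in V6.5. Bmi1, an alternative PCGF subunit, had 1.17 in UtxKO and 0.59 in V6.5, while its counterpart Pcgf2 had -0.45 in UtxKO and -0.36 in V6.5. Among the polyhomeotic subunits, Phc2 had 0.82 in UtxKO and 0.58 in V6.5, and Phc1 had -0.52 in UtxKO and -0.41 in V6.5. These 5 genes passed, with adjusted p between 0.0238 and 0.0415 in limma. Cbx8 (0.08 in UtxKO and 0.25 in V6.5) and the ubiquitin ligase Rnf2 (0.05 in UtxKO and -0.14 in V6.5) did not pass.

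Partners of Utx in the MLL3 and MLL4 complexes, which methylate H3K4 at enhancers, included 1 gene that rose and 1 that fell among 9. By the same test 8.93% of all genes rose and 7.93% fell. Dpy30, a core subunit of all MLL complexes, had -0.67 in UtxKO and -0.70 in V6.5, and its 2 features lay between -0.73 and -0.64. Pagr1a, which joins the complex through Paxip1, had 0.34 in UtxKO and 0.49 in V6.5. Kmt2c, the MLL3 enzyme, had -0.24 in UtxKO and -0.08 in V6.5, and Wdr5 had -0.24 in UtxKO and -0.05 in V6.5, and neither passed. Of 6 measured enzymes that acetylate H3K27 or methylate H3K36, both of which oppose PRC2, 1 rose. This was the acetyltransferase Crebbp, with 0.95 in UtxKO and 2.04 in V6.5 from 1 feature (adjusted p of 0.0424 in limma). Its UtxKO minus V6.5 difference was -1.09, and 0.467% of all genes were 2-fold or more lower in UtxKO than in V6.5. Its relative Ep300 had -0.14 in UtxKO and -0.35 in V6.5, and Nsd1, an H3K36 methyltransferase, -0.26 in UtxKO and -0.11 in V6.5, without passing.

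Among 21 other JmjC-domain genes, 2 rose and 1 fell, and the list median was -0.05 in UtxKO and -0.08 in V6.5. Kdm4d, an H3K9 demethylase, had 0.66 in UtxKO and 0.45 in V6.5. Kdm2b, which links a variant PRC1 to CpG islands, had a mean of 0.42 in UtxKO and 0.37 in V6.5, with its 2 features at 0.66 and 0.19 in UtxKO and at 0.62 and 0.12 in V6.5. Phf8, an X-linked demethylase of H3K9, had -0.43 in UtxKO and -0.33 in V6.5 over 3 features. Jmjd1c (-0.02 in UtxKO and -0.28 in V6.5) and Hr (-0.05 in UtxKO and -0.34 in V6.5) did not pass. Over all genes, by the same test, 8.93% rose and 7.93% fell.

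**Figure D4:**
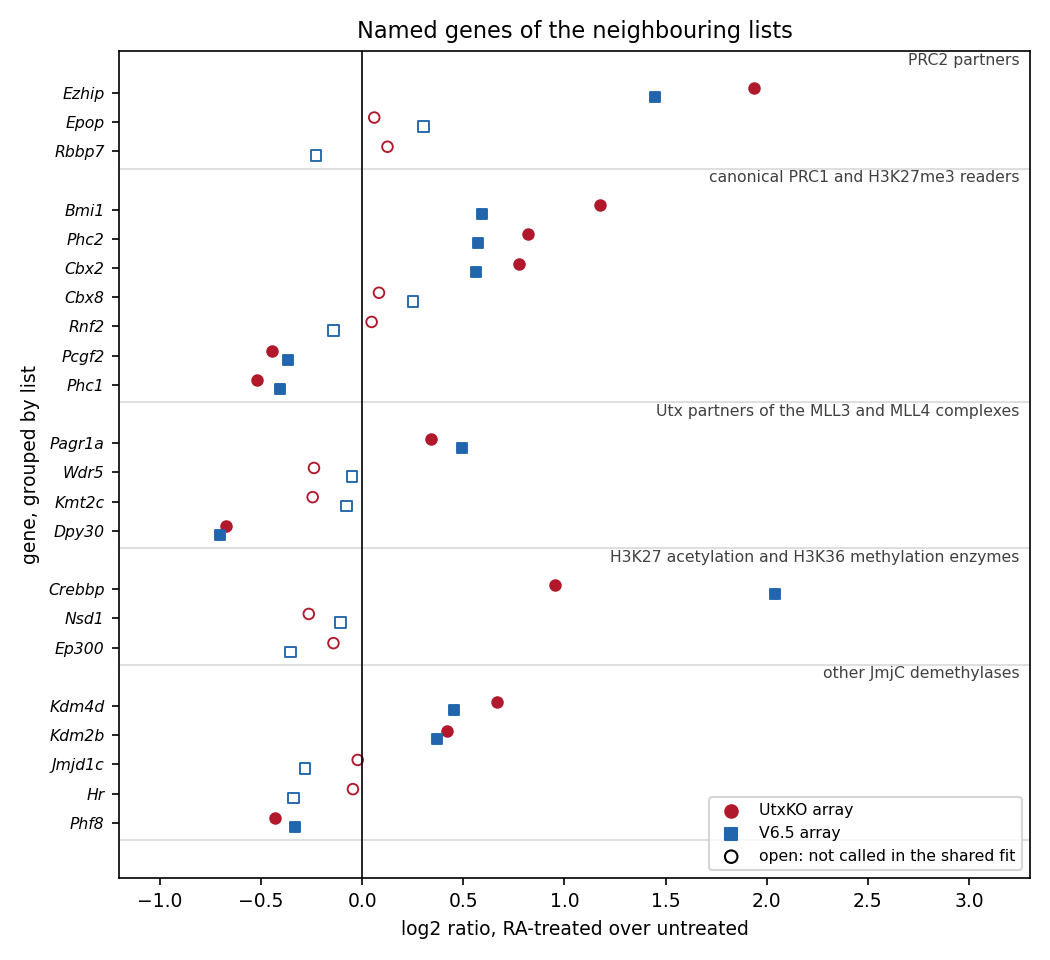
Log2 ratio, RA-treated over untreated, (x axis) for the named genes of 5 neighbouring lists (rows, grouped by list). Circles are the UtxKO array, squares the V6.5 array, and open symbols are genes not called in the shared limma fit. Ezhip has the highest UtxKO ratio of these genes, 1.94, and Crebbp the highest V6.5 ratio, 2.04.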

How the data were processed

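For each line, RA-treated and untreated RNA shared 1 dual-colour array, per the labels. The deposited values are log2 ratios of the authors, 1 per feature and array, with column means of 0 and medians of -0.03 in UtxKO and -0.03 in V6.5. The log base was inferred from the range of the values and from limma, which the submitters' processing notes name without version. The sources used here do not give the background correction or the normalization. Spot intensities were not used, so the signal behind a ratio is unknown, and having only 2 arrays limits the precision.

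Gene symbols came from the platform annotation (features: 33026 with 1 symbol, 0 with several, 11371 with none), and 21964 of 22485 genes had an Entrez number in RefSeq of GRCm38.p6. Features of a gene were averaged. The shared RA response was fitted with lmFit and eBayes of limma 3.58.1 in R 4.3.3 (1 residual and 2.98 prior degrees of freedom), two-sided, adjusted over all genes at 0.05. The step was run on data simulated from the spread it had fitted, without dye bias. This checks the code and not the 2 arrays. Single-line ratios and differences got no test: an exact sign-flip test over 2 arrays cannot go below 0.5. The members, lists and tests were chosen with earlier results of these data known. Text names all members, genes of 5 neighbouring lists that passed plus the 2 with the largest difference between lines in each, and the 3 genes nearest to Kdm6a and Phf19. Uty, Lcor and the neighbours of Phf19 fall outside this rule and were named with their values seen. Python 3.11.15, numpy 2.4.6, pandas 2.3.3 and matplotlib 3.10.9 did the rest.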

Additional observations from a re-analysis of the deposited data

Results flagged for a closer look

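Ratios of opposite sign in the 2 lines were found for 5 of the 10 genes, and for none of them was the difference tested, since each line had 1 array. The UtxKO minus V6.5 difference was 1.78 for Phf19, 0.25 for Jarid2, 0.091 for Ezh2, -0.20 for Kdm6b and -0.32 for Mtf2. For Ezh2 and Kdm6b both ratios lay within 0.14 of 0, the median SD between features of a gene. The UtxKO ratios of Jarid2 and Mtf2 lay within it too, so only Phf19 had both ratios outside it. The 2 features of Mtf2 in UtxKO lay on either side of 0. Opposite signs occurred in 24.4% of all genes.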

How the results depend on the processing

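The fall of Eed kept its call with the median of features, robust eBayes, arrays centred on the median and arrays scaled to the same spread. Its adjusted p ran from 0.0320 to 0.0349 in limma. Of these settings only centring could have changed its direction. Eed has 1 feature, and the other settings leave the sign of its ratios as it was. The count of the 10 genes that fell was 2 with each feature on its own and 2 with scaled arrays, where Phf1 joined Eed, and 0 with treat against 1.5-fold. It was 1 among genes with 2 or more features, where Eed is not tested and Phf1 passed (adjusted p of 0.0431 in limma). The count that rose was 0 in each of these settings. With a fold of 1.5 in place of 2, Phf19 passed on the V6.5 array (1 gene) and on the UtxKO array (1 gene). Of all genes 12% passed in V6.5 and 12.3% in UtxKO. The means of Ezh2 and Kdm6b, which were not called, changed sign with median centring, to 0.0027 and 0.0039. Over all genes, 2009 rose (8.93%) and 1784 fell (7.93%). With treat 196 rose (0.872%) and 97 fell (0.431%), and with scaled arrays 9.36% rose and 8.57% fell. With each feature on its own, 3694 (8.32%) rose and 3608 (8.13%) fell of 44397 features, with or without a gene symbol. Among 6138 genes with 2 or more features, 601 (9.79%) rose and 656 (10.7%) fell. No paired analysis was possible because the labels give no replicate numbers and each line had 1 array. Leaving out an array leaves no spread to test with. Signal over background is unknown here, so a weak feature cannot be told from a strong one.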

Other observations

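Besides Phf19, 3 genes were past 1.5-fold higher after RA in UtxKO and past 1.5-fold lower in V6.5. Prl4a1, of the prolactin family expressed in placenta, had 1.52 in UtxKO and -0.89 in V6.5. Ltb, lymphotoxin beta, had 0.59 in UtxKO and -1.63 in V6.5. Gsg1 had 0.65 in UtxKO and -0.64 in V6.5. Each rested on 1 feature, and these genes were picked out after their values were seen.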
